A study of Mus musculus with 6 samples.

Results

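The interferon-inducible GTPase genes are described here across 6 Agilent 1-colour mouse arrays of embryonic fibroblasts at day 8 of reprogramming. The set was given by name: 10 genes (Gbp2, Gbp3, Gbp6, Igtp, Iigp1, Irgm1, Ifi47, Tgtp1, Mx1 and Mx2) of the 27617 gene names on the array, measured by 14 of its 41174 probes. The cultures fall into 3 groups of 2 arrays, numbered as replicates 1 and 2: SKO with Gadd45a, SKO with G39A, which the submitters call a negative mutant of Gadd45a, and SKO with Flag, the control. All 3 groups were infected with virus and then kept for 6 days in medium with serum and lif. The labels do not spell out SKO, which in this field usually stands for Sox2, Klf4 and Oct4. The virus, the strain of the mice and whether replicates came from separate cultures are not stated in the labels. A p-value below therefore covers no more than the spread among these 6 arrays.

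Interferons are signals released by cells that sense viral nucleic acids; through their receptors, Janus kinases and STAT and IRF transcription factors they switch on many genes, among them several families of large GTPases. The guanylate-binding proteins (Gbp genes) gather on the vacuoles of intracellular microbes, the immunity-related GTPases (Igtp, Iigp1, Irgm1, Ifi47, Tgtp1) attack or spare such membranes, and the Mx proteins, relatives of dynamin, block the replication of viruses. In fibroblasts these genes are known for low basal levels and strong induction by type I and type II interferon.

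Of the 10 genes, 9 were well above background on all 6 arrays. A gene was tested if, in 1 group or more, its probe passed the scanner's mark for signal well above background on both arrays, and its level is log2 of the processed signal minus the 75th percentile of that array; Mx1 alone of the 10 genes was not tested. In replicate 2, all 9 were at least 2-fold higher with Gadd45a than with Flag (median log2 difference 2.13), as were 1.88% of all 15650 genes tested. All 9 were also at least 2-fold higher with G39A than with Flag (median 1.80), as were 0.984% of all genes. In replicate 1, none of the 9 reached 2-fold in either comparison, and the medians were 0.26 and -0.20. Of all genes, 0.511% and 1.23% were at least 2-fold higher there. None of the 9 passed limma's test of groups over both replicates, and neither did any other gene (0.0% of all genes).

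Short stretches before the start sites are shown because these genes share a known type of regulatory element, the interferon-stimulated response element bound by STAT and IRF factors. The core searched was GAAANNGAAA, on both strands, and the windows ran from 250 bases before to 50 bases after each start in RefSeq (GRCm38.p6). RefSeq windows were at hand for 6 of the 10 genes (7 windows, 2 of them for Gbp3), and 5 of these 6 genes held the core, against 3.44% of all 32851 promoter windows of the same length. Each stretch below reads 5′ to 3′ on the strand of its gene, and capitals mark the core or its reverse complement; in Gbp3 and Irgm1, 2 matches overlap.
Gbp2, chr3:142620574-142620643, plus strand: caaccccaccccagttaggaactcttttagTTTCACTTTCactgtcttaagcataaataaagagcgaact
Gbp3, chr3:142559969-142560043, plus strand: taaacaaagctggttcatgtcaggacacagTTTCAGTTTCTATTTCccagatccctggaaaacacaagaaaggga
Irgm1, chr11:48871421-48871480, minus strand: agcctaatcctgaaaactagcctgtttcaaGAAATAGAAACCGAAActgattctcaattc
Igtp, chr11:58199492-58199555, plus strand: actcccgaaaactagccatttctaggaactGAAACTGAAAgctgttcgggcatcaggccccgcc
Tgtp1, chr11:48992284-48992353, minus strand: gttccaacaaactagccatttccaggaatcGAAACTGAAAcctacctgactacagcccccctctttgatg
The match began 59 bases before the start site in Gbp2, 45 in Gbp3, 30 in Irgm1, 34 in Igtp and 77 in Tgtp1. The second window of Gbp3 and that of Ifi47 held no match, which says only that these letters are not in those windows. The element TTCNNNGAA, the core of gamma-activated sites, was found in the windows of Igtp and Tgtp1 and in 8.30% of all windows. A match is a description of the letters, not a shown binding site.

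Between 57.0% and 62.9% of 43379 non-control spots were well above background on each array, and no spot was saturated. The Gadd45a and Flag arrays of replicate 1 shared a slide, the G39A array of replicate 1 was on another, and all 3 arrays of replicate 2 shared one more, so the replicate number and the slide and scan cannot be told apart. Pou5f1, which encodes Oct4, was well above background on the 3 arrays of replicate 1 (signals 5153 with Gadd45a, 6363 with G39A and 3851 with Flag) and on none of replicate 2 (4.22, 4.4 and 3.57). The replicate 2 arrays therefore go against the SKO label if the probe lies in introduced sequence, which the labels do not state, and directions in replicate 2 are those of the arrays so labelled. Klf4 had signals of 15458 to 19703 on all 6 arrays, and Sox2 was well above background on the Flag replicate 2 array alone (21.9). The Gadd45a probe had signals of 1870 and 560 with Gadd45a, 2147 and 1395 with G39A, and 2309 and 1017 with Flag (replicates 2 and 1), so it was not brighter on the Gadd45a arrays; whether this probe lies in the introduced sequence is not stated either.

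Among the guanylate-binding proteins, Gbp2, which coats the vacuole of Toxoplasma in mouse cells, had signals of 3701 with Gadd45a and 3642 with G39A, against 1658 with Flag, in replicate 2. In replicate 1 its signals were 3822 with Gadd45a and 2666 with G39A, against 2878 with Flag. After scaling, the Flag array of replicate 2 was the lowest (log2 level 1.05). The other 5 ranged from 1.48 (G39A, replicate 1) to 2.30 (Gadd45a, replicate 2). The Gbp2 probe lies on chromosome 3 (142300719 to 142300778, mm9) and starts at base 2201 of its transcript.

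Gbp3, its neighbour in the same cluster of genes on chromosome 3, had signals of 2284 with Gadd45a and 2291 with G39A, against 483 with Flag, in replicate 2. On the arrays of replicate 1 the Gbp3 signals were 4915, 5210 and, with Flag, 4512. The 3 groups were thus nearly level in replicate 1, and in replicate 2 Gadd45a and G39A were 5.06-fold and 4.87-fold above Flag after scaling. Gbp6, of the second Gbp cluster, on chromosome 5, had signals of 262 with Gadd45a and 330 with G39A, against 130 with Flag, in replicate 2, and of 646 with Gadd45a and 467 with G39A, against 534 with Flag, in replicate 1. For Gbp3 and Gbp6 every array of replicate 1 was above every array of replicate 2. The share of all genes parted in this way was not counted, and limma called 56.4% of all genes between replicates.

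Irgm1 and Igtp are the regulatory members of the immunity-related GTPases, which protect the cell's own membranes from the effector members. Irgm1 was the gene of highest signal in the set by its first probe (chromosome 11, 48679069 to 48679128, mm9): 15339 with Gadd45a and 11653 with G39A, against 5051 with Flag, in replicate 2, and 9939 with Gadd45a and 8287 with G39A, against 8311 with Flag, in replicate 1. A second probe of Irgm1 (48679419 to 48679478) gave 7784, 5800 and, with Flag, 2464 in replicate 2, and 4704, 4142 and, with Flag, 4073 in replicate 1. The 2 probes differed by at most 0.10 (log2) in every difference between 2 arrays given here. The third probe (48676211 to 48676270), which carries no RefSeq accession in the file, was not well above background on any array (signals 4.87 to 14.8).

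Igtp, also named Irgm3, had signals of 5782 with Gadd45a and 4791 with G39A, against 1416 with Flag, in replicate 2, and of 3224 with Gadd45a and 2526 with G39A, against 2594 with Flag, in replicate 1. Its Gadd45a and G39A arrays of replicate 2 were the highest of the 6 and its Flag array of replicate 2 was the lowest, as for Irgm1. The Igtp probe lies at 58020927 to 58020986 of chromosome 11 (mm9).

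The effector GTPases Iigp1, Tgtp1 and Ifi47, which load onto the vacuoles of microbes, shared the replicate 2 difference and little else. Iigp1 (Irga6, chromosome 18) had signals of 4551 with Gadd45a and 4767 with G39A, against 968 with Flag, in replicate 2. In replicate 1 it was dim but well above background, at 221 with Gadd45a and 134 with G39A, against 126 with Flag. All 3 arrays of replicate 2 were above all 3 of replicate 1, by 23.5-fold with Gadd45a, 43.3-fold with G39A and 7.96-fold with Flag. In these groups 11.7%, 11.7% and 11.1% of all genes were at least 2-fold higher in replicate 2.

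Tgtp1 (Irgb6) ran the other way between replicates: 2533 with Gadd45a and 1646 with G39A, against 483 with Flag, in replicate 2, and 8412 with Gadd45a and 5411 with G39A, against 5468 with Flag, in replicate 1. Its probe (chromosome 11, 48800173 to 48800232, mm9) also lists a transcript of the near-identical gene Tgtp2, so signals of the 2 genes cannot be told apart. A second, dimmer probe with the same limit gave 40.2 with Gadd45a, 20.9 with G39A and 9.11 with Flag in replicate 2, of which the G39A and Flag values were not well above background, and 176, 98.1 and 87.7 in replicate 1. By that probe Gadd45a was at least 2.51-fold above Flag in replicate 2 and 1.94-fold above it in replicate 1. Gadd45a was also at least 1.98-fold above G39A in replicate 2 and 1.99-fold above G39A in replicate 1. Ifi47 (Irgd) had signals of 773 with Gadd45a and 741 with G39A, against 217 with Flag, in replicate 2, and of 580 with Gadd45a and 757 with G39A, against 468 with Flag, in replicate 1. For Ifi47 the Flag arrays were the lowest of both replicates.

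Of the Mx genes, Mx2 had signals of 2829 with Gadd45a and 2001 with G39A, against 476 with Flag, in replicate 2. In replicate 1 they were 1082 with Gadd45a and 1050 with G39A, against 972 with Flag, so the groups differed by at most 1.15-fold after scaling. Mx2 had the widest difference of the tested set between Gadd45a and Flag in replicate 2, 6.36-fold. Mx1, the nuclear protein that blocks influenza virus in mice and is inactivated by mutation in many inbred strains, was well above background only on the Gadd45a array of replicate 2, where its signal was 31.6. Its signal was 15.7 with G39A and 3.43 with Flag in that replicate and 4.81 to 7.06 in replicate 1, all not well above background, and its second probe was dim on all 6 arrays (3.47 to 8.64). In replicate 2, Mx1 was at least 1.97-fold higher with Gadd45a than with Flag, a bound set by the lowest signal called well above background on the Flag array.

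**Figure D1:**
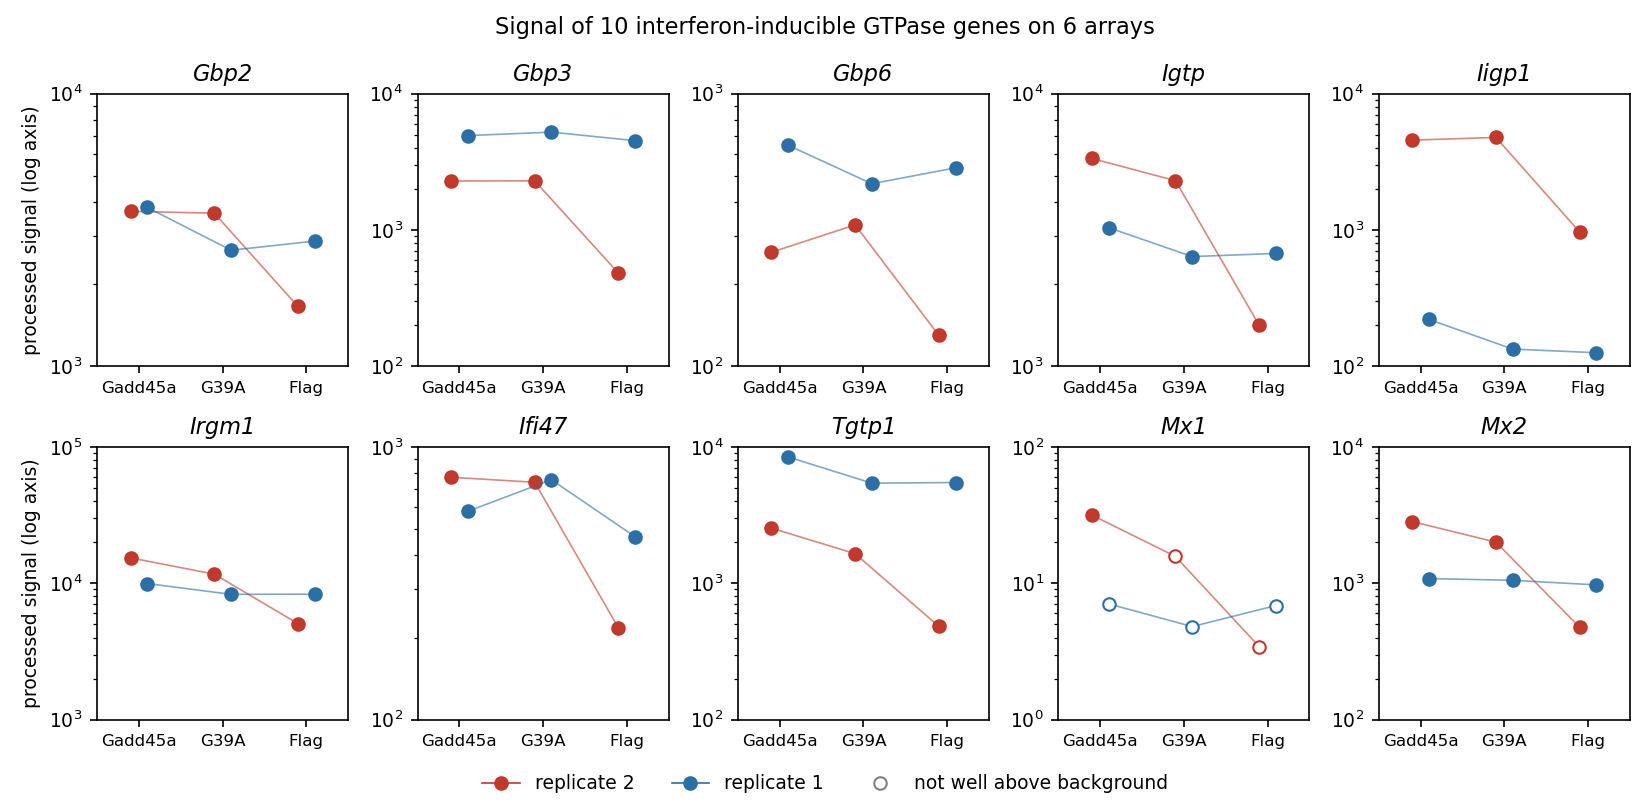
Processed signal (log axis) of the first probe of each of the 10 genes with Gadd45a, G39A and Flag, in replicate 2 (red) and replicate 1 (blue); each point is 1 array and open points were not well above background. In replicate 2 Flag is the lowest point in every panel, and in replicate 1 the groups lie close together.

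The question put to Gadd45a against Flag is which genes Gadd45a regulates during reprogramming. Within replicate 2, whose arrays shared a slide, the log2 differences of Gadd45a minus Flag were 1.26 for Gbp2, 2.34 for Gbp3, 1.11 for Gbp6, 1.70 for Irgm1 and 2.13 for Igtp. They were 2.33 for Iigp1, 2.49 for Tgtp1, 1.93 for Ifi47 and 2.67 for Mx2. The background was 1.88% of the 15650 genes tested at least 2-fold higher, with a median of -0.002 over all genes, and 9 of 9 genes of the set were past that fold. Within replicate 1, also on 1 slide, the differences were 0.08 to 0.77, all 9 above 0, with Iigp1 at the top (0.77), then Tgtp1 (0.58) and Gbp2 (0.36). None was 2-fold, where 0.511% of all genes were at least 2-fold higher and the median over all genes was -0.039. Of all 15650 genes, 6362 were above 0 there. Whether the differences of the 2 replicates differ could not be tested with 1 array per group and replicate.

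Over both replicates the fitted differences were 0.67 (Gbp6) to 1.55 (Iigp1), with a median of 1.20 (log2). limma called 0 of 15650 genes for Gadd45a against Flag (0.0%; lowest adjusted p 0.712, with 97 genes whose unadjusted p was under 0.05). Standard errors of the 9 genes ran from 0.39 for Gbp2 to 2.59 for Iigp1, whose arrays differed most between replicates. The 95% interval of the Ifi47 difference of 1.10, that of smallest p (limma, unadjusted p = 0.064, adjusted p = 1.0), reached from -0.10 to 2.29. These standard errors and this interval hold the spread between replicates. With the replicate number as a block, standard errors were 0.37 (Gbp2) to 0.67 (Mx2), with Iigp1 at 0.60. The interval of Tgtp1 (1.53), that of smallest p in that fit (limma, unadjusted p = 0.0457), then reached from 0.05 to 3.02. limma's adjusted p of the 9 genes with the block was 0.573 to 0.71, so none passed. Without the Flag array of replicate 2, the fitted differences of Gbp3, Gbp6 and Tgtp1 turned below 0, to -0.38, -0.33 and -0.19, and Iigp1 was at -0.73 without the Gadd45a array of replicate 2; these fits leave out the pairing of the arrays. With the replicate block no member turned below 0 when 1 array was left out. The median ran from 0.57 to 1.62 without the block and from 0.22 to 2.17 with it.

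The G39A arrays were set against the same Flag arrays, so the 2 comparisons are not independent. In replicate 2 the differences of G39A minus Flag were 1.17 for Gbp2, 2.28 for Gbp3, 1.38 for Gbp6, 1.24 for Irgm1 and 1.80 for Igtp. They were 2.34 for Iigp1, 1.80 for Tgtp1, 1.81 for Ifi47 and 2.11 for Mx2. All 9 were at least 2-fold higher, against a background of 0.984% of all genes. In replicate 1, where the G39A and Flag arrays were on different slides, 7 of the 9 were lower and 2 higher, from -0.39 (Gbp6) to 0.50 (Ifi47), and none was 2-fold (1.23% of all genes were at least 2-fold higher). Of all 15650 genes, 9175 were lower there, with a median of -0.05. The fitted differences were 0.43 (Gbp2) to 1.15 (Gbp3 and Ifi47), median 0.80. limma called 0 genes of 15650 (0.0%; lowest adjusted p 0.954, 82 genes whose unadjusted p was under 0.05). With the replicate block each of the 9 had a limma adjusted p of 0.991. Without the Flag array of replicate 2, Gbp3, Gbp6 and Tgtp1 turned to -0.44, -0.50 and -0.93. Iigp1 turned to -0.38 without the Flag array of replicate 1 and to -1.60 without the G39A array of replicate 2.

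**Figure D2:**
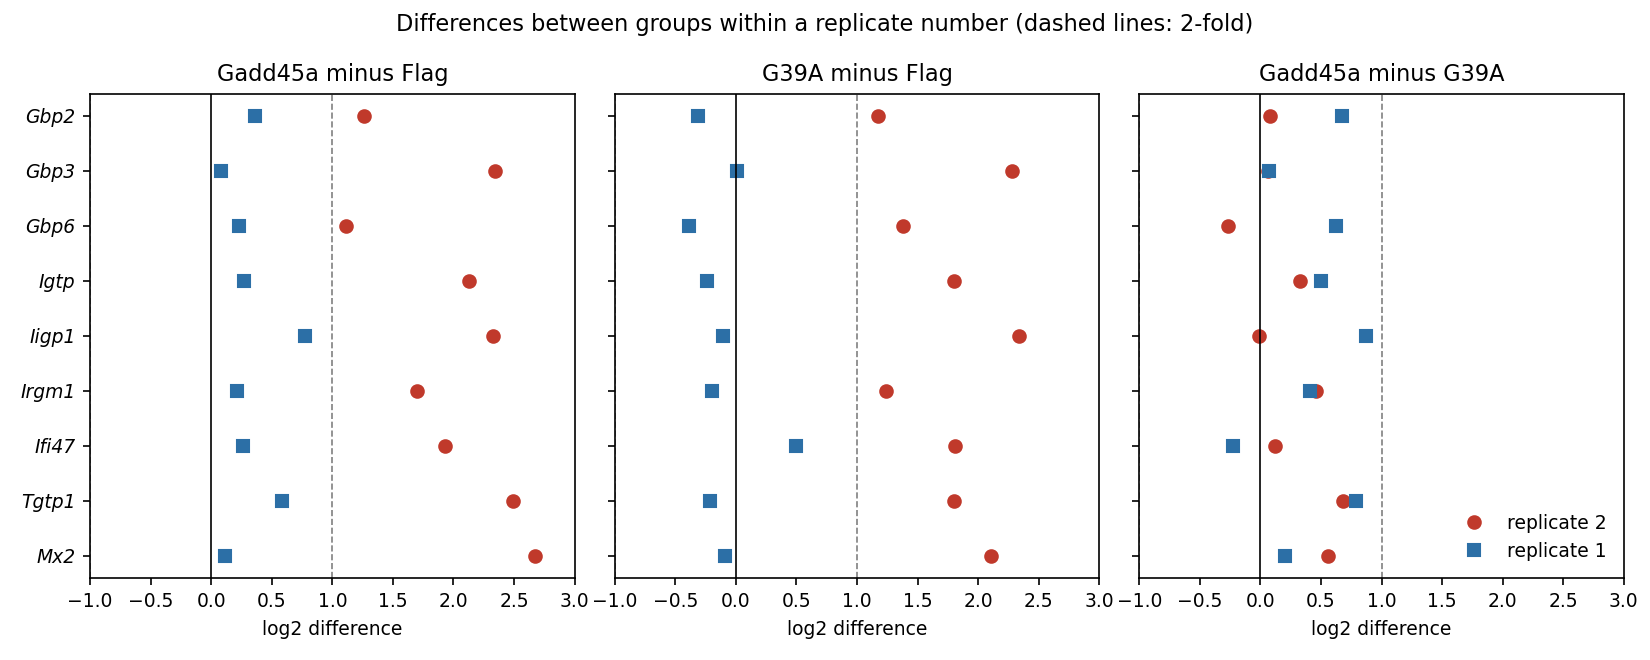
Log2 differences between groups within replicate 2 (red circles) and replicate 1 (blue squares) for the 9 tested genes; dashed lines mark 2-fold and each point compares 1 array with 1 array. Against Flag, both Gadd45a and G39A exceed 2-fold for all 9 genes in replicate 2 and for none in replicate 1. By the probes drawn, which are the first of each gene, none reaches 2-fold between Gadd45a and G39A.

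Gadd45a against G39A asks what the mutant changes. In replicate 2 the differences of Gadd45a minus G39A ran from -0.27 (Gbp6) to 0.68 (Tgtp1), with 7 of 9 higher and a median of 0.12. In replicate 1, across slides, they ran from -0.23 (Ifi47) to 0.87 (Iigp1), with 8 of 9 higher and a median of 0.50. None was 2-fold in either replicate, where 1.35% and 1.2% of all genes were at least 2-fold higher in replicates 2 and 1. Of all 15650 genes, 7897 and 7999 were higher with Gadd45a in replicates 2 and 1. Gbp2, Gbp3, Igtp, Irgm1, Tgtp1 and Mx2 were higher with Gadd45a in both replicates. limma called 0 of 15650 genes (0.0%; lowest adjusted p 0.52, 114 genes whose unadjusted p was under 0.05). The fitted differences were -0.05 to 0.74, and their 95% intervals were wide: with the replicate block, that of Irgm1 (0.44) reached from -0.68 to 1.56 and that of Tgtp1 (0.74) from -0.75 to 2.22. Both intervals leave room for levels over 2-fold higher with Gadd45a, so they do not show that Gadd45a and G39A act alike. By the dimmer second Tgtp1 probe the difference with the block was 1.0, with an interval from 0.04 to 1.96. That fit took every probe as a feature (limma, unadjusted p = 0.0446, adjusted p = 0.581). It holds a G39A value of replicate 2 that was not well above background. With slide as a random block the median turned to -0.06, and the median moved to 0.01 without the G39A array of replicate 1, to 0.03 without the Gadd45a array of replicate 2 and to 0.75 without the G39A array of replicate 2.

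Between replicate 2 and replicate 1 the set split. Iigp1 rose by 4.33 ± 0.49 (log2, SE; limma with the group as a term, adjusted p = 0.00284), and it was higher in 3 of 3 groups. Tgtp1 fell by 2.14 ± 0.45 (adjusted p = 0.0172), lower in 3 of 3 groups. Gbp3 (-1.66, adjusted p = 0.0511) and Gbp6 (-1.11, adjusted p = 0.0553) were lower in 3 of 3 groups and did not pass, and Gbp2, Igtp, Irgm1, Ifi47 and Mx2 had differences of -0.07 to 0.60. The background was 56.4% of all genes called, 33.0% higher and 23.4% lower, and 2 of the 9 genes were called, 1 each way. The call of Tgtp1 ended without the filter on dim probes (adjusted p 0.0542), while Gbp3 passed with normexp background correction (0.0162) as did Gbp6 (0.0287). Gbp6 also passed without either G39A array (-1.55, limma adjusted p 0.0248).

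Inside this comparison the Flag group went its own way for 5 genes. Replicate 2 minus replicate 1 was 0.15 with Gadd45a and 0.73 with G39A, against -0.75 with Flag, for Gbp2. For Igtp it was 1.04 with Gadd45a and 1.21 with G39A, against -0.83 with Flag, and for Irgm1 0.82 and 0.78, against -0.67 with Flag. Ifi47 had 0.61 with Gadd45a and 0.25 with G39A, against -1.06 with Flag, and Mx2 1.58 and 1.21, against -0.98 with Flag. The other 4 genes kept 1 direction in all groups but with Flag lowest: Gbp3 had -0.91 with Gadd45a, -0.90 with G39A and -3.18 with Flag, and Tgtp1 -1.54, -1.43 and -3.45. Iigp1 had 4.56, 5.43 and, with Flag, 2.99, and Gbp6 -1.11, -0.22 and -1.99.

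In counts, 3 of the 9 genes were at least 2-fold higher in replicate 2 with Gadd45a and 3 with G39A, against 1 with Flag, where the shares over all genes were 11.7%, 11.7% and 11.1%. At least 2-fold lower were 2 with Gadd45a, 1 with G39A and 4 with Flag, where the shares were 11.1%, 11.3% and 11.2%. Without either Flag array, Igtp (1.12, limma adjusted p 0.00891), Irgm1 (0.80, adjusted p 0.0134) and Mx2 (1.40, adjusted p 0.00979) passed as higher in replicate 2, and Gbp3 (-0.91, adjusted p 0.0106) as lower. After scaling, the Flag array of replicate 2 was the lowest of the 6 for 8 of the 9 genes, all but Iigp1, and for 12.7% of all genes. The Gadd45a array of replicate 2 was the highest for 5 of the 9 (24.3% of all genes), the Gadd45a array of replicate 1 for 3 (11.2%) and the G39A array of replicate 2 for 1 (12.7%).

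**Figure D3:**
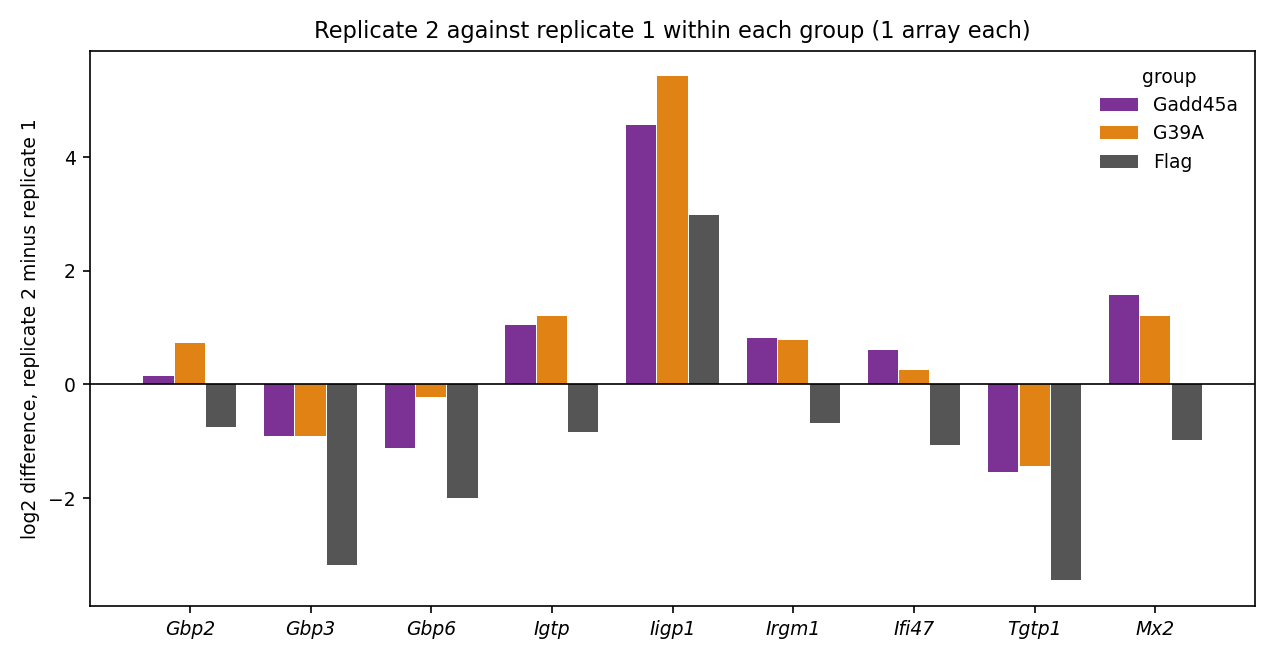
Log2 difference of replicate 2 minus replicate 1 within the Gadd45a, G39A and Flag groups for the 9 tested genes, each bar from 1 array against 1 array. The Flag bar is the lowest for every gene, and Iigp1 is far above 0 in all groups while Gbp3, Gbp6 and Tgtp1 are below it.

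The members differed in shape across the arrays. Measured as the root mean square difference of profiles centred on their own mean over 6 arrays, Igtp was closest to Irgm1 (0.188 on the log2 scale) and to Mx2 (0.192), and Gbp2 was close to Irgm1 (0.205). Gbp3 and Tgtp1 were close to each other (0.372). Iigp1 was farthest from Tgtp1 (3.242) and at least 1.883 from every other tested member. The closeness did not follow the families: Mx2 lay nearer to Igtp than Igtp did to its fellow immunity-related GTPases Iigp1 (1.94) and Ifi47 (0.37).

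Of 18 other interferon-inducible GTPases listed, 11 were measured by that name and 7 were tested, and all 7 were at least 2-fold higher with Gadd45a than with Flag in replicate 2 (median 1.76, or 1.5 with dim probes at their bound) and none in replicate 1 (median 0.08). With G39A, 6 of the 7 were at least 2-fold higher than Flag in replicate 2 (median 1.41, or 1.37 with dim probes at their bound). The exception was Gbp4, which was dim on that Flag array and for which the bound was at least 1.84-fold. Gvin1, a very large inducible GTPase, had signals of 3479 with Gadd45a and 2114 with G39A, against 840 with Flag, in replicate 2, and of 9736, 8558 and, with Flag, 9133 in replicate 1. Irgm2, the remaining regulatory Irgm gene, had 5094 and 4191, against 1614 with Flag, in replicate 2, and 2773, 2391 and, with Flag, 2537 in replicate 1. Irgm2 thus showed the pattern of Irgm1 and Igtp, and Gvin1 that of Tgtp1.

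The other Gbp genes lay on the same side in replicate 2. The differences of Gadd45a minus Flag were 1.28 for Gbp7, 1.08 for Gbp8 and 1.5 for Gbp9 in replicate 2, and 0.18, -0.08 and -0.12 in replicate 1. Gbp4 had signals of 36.1 with Gadd45a and 30.8 with G39A, against 7.37 with Flag, in replicate 2, and Gbp5 had 77.0 and 76.7, against 15.4 with Flag. Both Flag signals were not well above background, so with Gadd45a Gbp4 was at least 2.26-fold and Gbp5 at least 4.81-fold higher than with Flag. In replicate 1 Gbp4 differed by 0.30, and Gbp5 was not well above background with Gadd45a or with Flag (signals 20.3 and 16.1). Between replicates, Gbp4 (-3.28 ± 0.48, limma adjusted p = 0.00594), Gbp7 (-1.24 ± 0.26, adjusted p = 0.0177) and Gvin1 (-2.14 ± 0.44, adjusted p = 0.0161) fell, and Gbp5 was at 1.36 without passing (adjusted p = 0.0678). Of the 7 other GTPases tested 3 were thus called lower, where 23.4% of all genes were. Gbp2b, Gm12250 and Irgc1 were not well above background on any array, and Gm4951 only on 2. In the promoter windows, the response element core was present for Gbp5, Gbp7, Gbp2b, Irgm2, Tgtp2 and Gm12250, of which Gbp2b and Gm12250 were dim here.

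Interferon transcripts themselves were scarce. Of 13 interferon genes measured, 9 were not well above background on any array, Ifnb1, Ifna2, Ifna4 and Ifng among them. Ifnb1, the interferon that fibroblasts release first, had signals of 10.8 with Gadd45a, 7.73 with G39A and 3.85 with Flag in replicate 2, all dim. Ifna7 and Ifna9 were well above background on 1 array each, and Ifna13 on 3, with signals of 8.44 with Gadd45a and 7.83 with G39A, against 18.7 with Flag, in replicate 2 and 7.72, 22.7 and, with Flag, 92.1 in replicate 1. Ifnz, of the limitin genes, was well above background on all 6 arrays and level between groups: 1305 with Gadd45a and 1085 with G39A, against 1130 with Flag, in replicate 2. It fell by 0.55 ± 0.07 in replicate 2 against replicate 1 (limma adjusted p = 0.00451).

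The receptors and kinases that read interferon were level between the groups. All 7 were tested, and Gadd45a minus Flag had medians of -0.01 in replicate 2 and -0.04 in replicate 1, with no gene past 0.39 in size. Ifnar1 and Ifnar2, the receptor of type I interferon, differed by 0.15 and 0.11 in replicate 2, and Ifngr1 and Ifngr2, that of type II interferon, by -0.12 and 0.10. The kinases Jak1, Jak2 and Tyk2 differed by -0.11, -0.19 and -0.01. In replicate 2 against replicate 1, limma called 5 of the 7 higher, where 33.0% of all genes were. These were Ifngr2 by 1.41 ± 0.08 (limma adjusted p = 0.000484), Jak1 by 0.94, Ifnar1 by 0.62, Ifnar2 by 0.49 and Ifngr1 by 0.32.

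Among the STAT and IRF factors, Irf7, which amplifies the type I response and is itself induced by interferon, stood out. Its signals were 741 with Gadd45a and 613 with G39A, against 156 with Flag, in replicate 2 (differences of 2.35 and 2.01), and 861, 695 and, with Flag, 650 in replicate 1. Stat2 and Irf9, partners in the complex on the response element, had differences of Gadd45a minus Flag of 1.0 and 0.70 in replicate 2 and of 0.11 and -0.03 in replicate 1. Irf1, Irf2 and Irf3 lay within 0.04 of 0 in replicate 2, Irf5 at 0.45. Of 8 tested genes, 2 were at least 2-fold higher in replicate 2 (median 0.57) and none in replicate 1 (median -0.06). Irf8 and Batf2 were well above background on 2 arrays each and not tested, Batf2 with signals of 22.9 with Gadd45a, 21.7 with G39A and 3.52 with Flag in replicate 2. Usp18, an inhibitor that is itself induced by interferon, was at 3.50 in replicate 2 and 0.22 in replicate 1, while Socs1, Pias1 and Ptpn2 lay between -0.26 and 0.07 and Socs3 at -0.79 and -0.09. Usp18 alone of the 6 inhibitors was 2-fold higher.

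Other interferon-stimulated genes showed the same split of replicates. Of 18 tested effectors of type I interferon, 15 were at least 2-fold higher with Gadd45a than with Flag in replicate 2 (median 2.90) and none in replicate 1 (median 0.11); with G39A 15 were, too (median 2.25 in replicate 2). Rsad2, the enzyme viperin, had the largest difference in replicate 2 (3.63), before Oasl1 (3.29), Cmpk2 (3.20) and Ifi44 (3.18). Of 9 tested sensors of nucleic acid, 5 were at least 2-fold higher in replicate 2 (median 1.22; 0.03 in replicate 1), with Zbp1 (2.51), Dhx58 (2.07), Ifih1 (1.89) and Ifi204 (1.48) at the top. Of 9 tested effectors of interferon gamma, 3 were at least 2-fold higher in replicate 2 (median 0.89; 0.17 in replicate 1), with Cxcl10 (3.49) and Cd274 (1.96) at the top. Ido1 was not well above background with Gadd45a in that replicate (signal 9.09, against 23.9 with Flag), and was at least 1.09-fold lower. These lists stood on the same arrays and are no independent check of the GTPase genes.

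GTPases of the dynamin family that interferon does not induce, such as Dnm2, Opa1 and Mfn2, lay near 0: of 10, none was 2-fold with Gadd45a against Flag in either replicate (medians 0.03 in replicate 2 and 0.02 in replicate 1). The 13 listed partners of the immunity-related GTPases in autophagy had medians of 0.10 and -0.02, Map1lc3b and Sqstm1 among them at -0.20 and 0.45 in replicate 2.

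**Figure D4:**
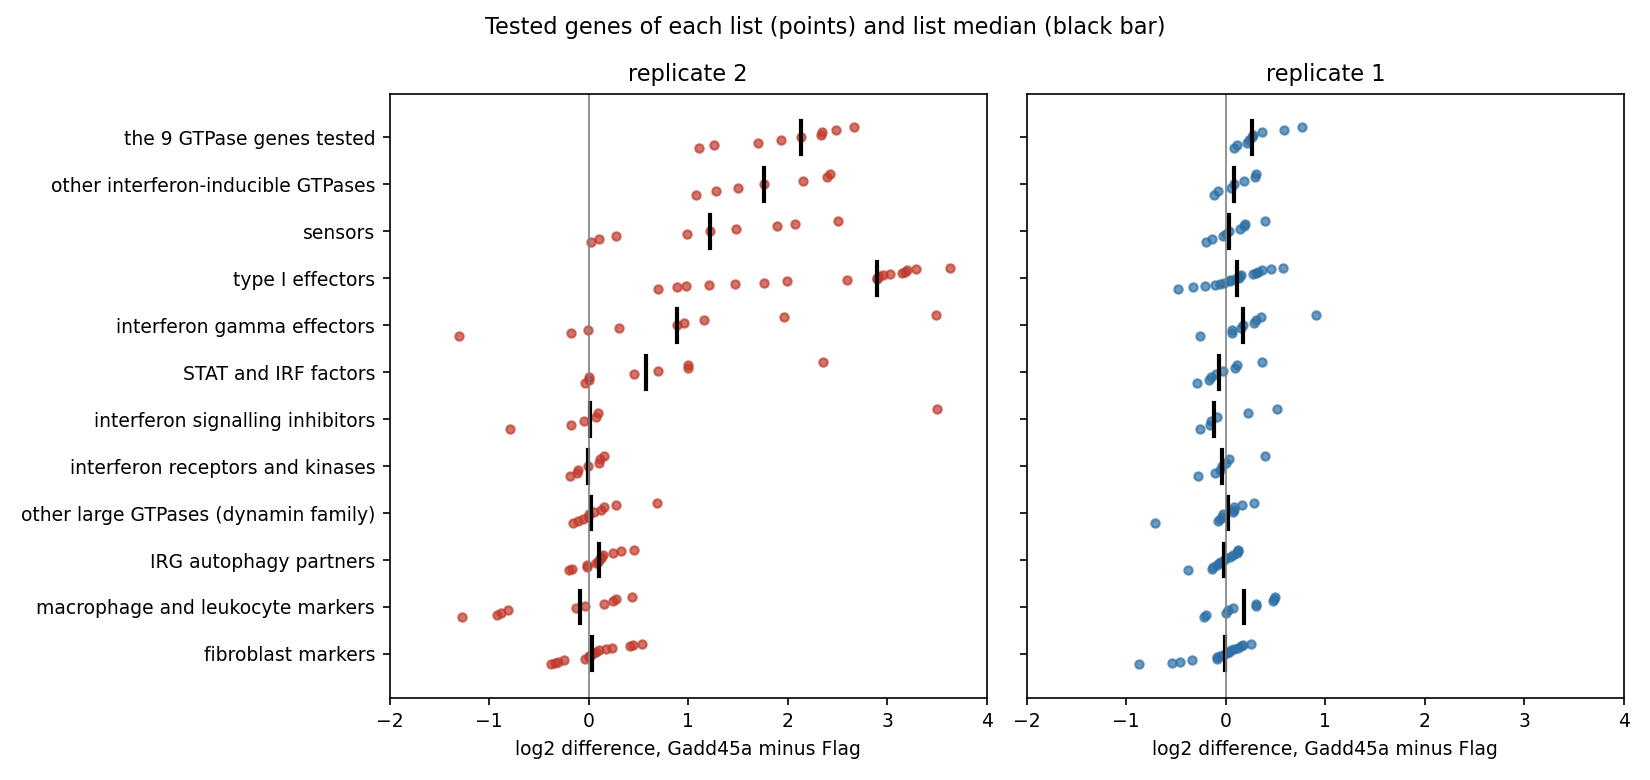
Log2 difference of Gadd45a minus Flag for each tested gene (points) of 12 gene lists, with the median of the list as a black bar, in replicate 2 (left) and replicate 1 (right); dim probes are drawn at their measured value. In replicate 2 the GTPase genes, the other inducible GTPases, the sensors and the type I effectors lie mostly above 1, while receptors, dynamin relatives, autophagy partners and fibroblast markers lie around 0; in replicate 1 all medians lie between -0.12 and 0.26.

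Markers of the labelled cell type were present: all 16 fibroblast markers were tested, Col1a2 had signals of 205407 to 262805, and Gadd45a minus Flag had medians of 0.03 in replicate 2 and -0.01 in replicate 1. Between replicates 15 of these 16 were higher in replicate 2 (median 1.87). limma called 11 of them higher, where 33.0% of all genes were, among them Pdgfra (4.79) and Lum (5.05). Of 17 macrophage and leukocyte markers, 10 were tested, with medians of -0.09 in replicate 2 and 0.19 in replicate 1. Of the 17, 10 were well above background on all 6 arrays, among them Cd68, Csf1r, Itgam, Cd14, Aif1 and Laptm5, while Ptprc, Cd3e and Cd79a were not on any array and Adgre1 was on the 3 arrays of replicate 2 only. Summed over the list and divided by the 75th percentile of the array, their level was 143 with Gadd45a and 172 with G39A, against 160 with Flag, in replicate 2, and 229, 286 and, with Flag, 223 in replicate 1. Ly6c2 made up most of that sum. Over the other markers that were well above background on 1 array or more, it was 7.49 with Gadd45a and 8.56 with G39A, against 11.95 with Flag, in replicate 2, and 7.67, 6.4 and, with Flag, 6.28 in replicate 1. Of these 12 markers, Ly6c2 included, 8 were lower with Gadd45a than with Flag in replicate 2, on whose Flag array the GTPase genes were lowest. Lyz2 made up most of the sum without Ly6c2 on every array of replicate 2, and Laptm5 did on every array of replicate 1. In replicate 2 Lyz2 had signals of 4038 with Gadd45a and 4949 with G39A, against 7592 with Flag. The adaptors Tyrobp and Fcer1g had 137 and 167 with Gadd45a there, against 279 and 329 with Flag. Laptm5 had 39.5 with Gadd45a, against 102 with Flag, and Adgre1 23.6, against 62.1 with Flag. The 4 markers higher with Gadd45a than with Flag in replicate 2 were Aif1, Itgam, Csf1r and Cd68, by 0.43, 0.27, 0.24 and 0.15 (log2). With G39A, Itgam was higher than with Flag by 1.62. Of the 8 lower with Gadd45a, Cd14 and Ly6c2 were at -0.04 and -0.13. Between replicates, Lyz2 (2.85), Tyrobp (2.23), Fcer1g (2.05), Aif1 (2.02) and Csf1r (0.81) rose, and Laptm5 (-5.79), Itgam (-3.03), Cd68 (-0.89) and Ly6c2 (-0.68) fell (limma, adjusted p at most 0.00395). Of the 10 tested markers 5 were thus called higher and 4 lower, where 33.0% and 23.4% of all genes were. The part of these markers in the results of the GTPase genes was not tested. Endothelial markers had medians of 0.33 in replicate 2 and 0.12 in replicate 1 over 6 tested genes, with Pecam1 and Cdh5 not well above background on any array. The summed level of the pluripotency and epithelial markers was 1.59 to 3.04 in replicate 2 and 10.3 to 12.6 in replicate 1. Cdh1, Epcam, Ocln and Zfp42, like Pou5f1, were well above background on the 3 arrays of replicate 1 only. The first 4 had signals with Flag of 360, 583, 153 and 210 in replicate 1, and of 3.85, 6.19, 4.14 and 7.19 in replicate 2. Dppa5a, Sall4, Krt8 and Krt18 were well above background on all 6 arrays. The part of this list in the replicate difference of the GTPase genes was not tested. In such mixed cultures, fewer cells expressing a gene and less RNA per cell cannot be told apart.

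The genes whose profile was most like the median profile of the 9 tested members over the 6 arrays were Sp110, a nuclear body protein (root mean square difference 0.134), the RNA sensors Dhx58 (0.159) and Ifih1 (0.16), Bst2, which tethers budding viruses (0.187), and Samd9l (0.188). Ifi211, Ddx60 and Oas1b followed (0.212, 0.221 and 0.24). The median profile itself stood at 0.65 with Gadd45a and 0.42 with G39A, against -1.28 with Flag, in replicate 2, and at 0.06, -0.35 and, with Flag, -0.16 in replicate 1 (log2, centred on the mean of each gene). In each group the arrays of replicates 2 and 1 thus lay farther apart than any of the 3 arrays of replicate 1 did, and the Flag arrays lay farthest apart.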

How the data were processed

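RNA of 6 fibroblast cultures was hybridised to 1-colour arrays. Per the file headers, spot intensity was made with Agilent Feature Extraction, version 10.7 per the submitters' processing notes, and the processed intensity was corrected for background and trend within the array and not normalized between arrays. The authors also deposited 0 or 1 marks of each spot (well above background, saturated, outlier) and a value table on a log2 scale, whose columns follow their own scanner arrays (lowest r 0.9989) and share a median of 6.17; it was used as an alternative, and its other steps are not stated in the labels.

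Spots marked as outliers were left out, spots of a probe were averaged, and the 75th percentile of log2 signal was subtracted from each array. Of 41174 probes, 27668 were named through RefSeq accessions (GRCm38.p6, for names and promoter windows only); probe coordinates are mm9, from the files. After the filter 24149 probes and 15650 genes were left, each gene by its probe of highest mean signal. Where a probe was dim on 1 side, a fold is a bound: the bright signal over the higher of the dim signal and the lowest signal called well above background on that array. Shares over all genes and list medians take dim probes at their measured value unless a bound is named.

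limma 3.58 in R 4.3 was fitted on all 6 arrays without a block (3 residual degrees of freedom), p-values adjusted by Benjamini-Hochberg across the 15650 genes, and a threshold of 0.05; replicate 2 against 1 was fitted with the group as a term. The code was tested on simulated data. The median standard error was 0.318 (log2) between groups, 0.117 with the replicate number as a block, and 0.095 between replicates; the number of arrays limits the precision. Deviations of same-numbered arrays from their group means correlated at 0.911 to 0.915 for the 3 pairs of groups. The numbers, which come from the labels, were therefore taken to pair the arrays in the differences within a replicate and in the fits with the replicate block. No label says what a number marks, and the main fit between groups did not use the pairing.

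The genes of the set, the gene lists and the naming rule were chosen with earlier results of these data known. The rule names all members in every comparison, every measured other GTPase, interferon, receptor, kinase, STAT and IRF gene, up to 4 genes of widest difference of any other list, and the 8 genes most like the median member. Some genes the rule names are not reported here. Alternatives were normexp background correction (offset 50), quantile normalization, the deposited table, other filters and probe rules, the replicate block, slide as a block, and leaving out each array.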

Additional observations from a re-analysis of the deposited data

How the results depend on the processing

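Each group has 2 arrays, on different slides, and the difference from Flag was past 2-fold in replicate 2 alone. Quantile normalization, normexp and the deposited table, the filters on dim probes and the rules for probes left the member medians against Flag within the spread of the replicates and called 0 genes between groups. With the replicate block limma called 0 genes in each of the 3 comparisons between groups, with 1345 (Gadd45a against Flag), 452 (G39A against Flag) and 1390 (Gadd45a against G39A) genes at an unadjusted p under 0.05, and changed no call. With slide as a random block 19, 3 and 7 genes were called in these comparisons, none of them a member. The G39A array of replicate 1 was alone on its slide. Slide as a fixed block is therefore the same fit as the replicate block without that array, and not a separate check. For G39A against Flag the member median was 1.28 with slide as a random block and 1.33 with slide as a fixed block, against 0.80 with neither. For Gadd45a against G39A the member median turned to -0.06 with slide as a random block and -0.14 with slide as a fixed block. There Gbp2 was at -0.06 and -0.14, Gbp3 at -0.45 and -0.51, Gbp6 at -0.42 and -0.49, Igtp at -0.05 and -0.13, Iigp1 at -0.22 and -0.40, and Mx2 at -0.01 and -0.08. For replicate 2 against 1 the member median was -0.05 with quantile normalization and with the deposited table, and Gbp2 was at -0.03 with normexp and at -0.05 with each of the other 2; the cause was not tested.

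Leaving out 1 array at a time turned several directions. For Gadd45a against Flag, Gbp3 ran from -0.38 to 2.80, Gbp6 from -0.33 to 1.66, Iigp1 from -0.73 to 3.83 and Tgtp1 from -0.19 to 3.26, all without the block; with the replicate block they ran from 0.07 to 2.34, 0.00 to 1.33, 0.55 to 2.55 and 0.55 to 2.51. The median of that comparison ran from 0.57 to 1.62 without the block and from 0.22 to 2.17 with it. The other ranges are over fits with and without the block. For G39A against Flag the median ran from -0.17 to 1.78, Gbp2 from -0.16 to 1.02, Gbp3 from -0.44 to 2.73, Gbp6 from -0.50 to 1.49, Igtp from -0.19 to 1.75, Iigp1 from -1.60 to 3.83, Irgm1 from -0.21 to 1.25, Tgtp1 from -0.93 to 2.52 and Mx2 from -0.18 to 2.20. For Gadd45a against G39A the median ran from -0.14 to 0.84, Gbp2 from -0.14 to 0.90, Gbp3 from -0.51 to 0.63, Gbp6 from -0.49 to 0.84, Igtp from -0.18 to 1.02, Iigp1 from -2.28 to 3.15, Ifi47 from -0.56 to 0.45, Tgtp1 from -0.03 to 1.51 and Mx2 from -0.41 to 1.17. For replicate 2 against 1 the median ran from -0.23 to 0.44, Gbp2 from -0.30 to 0.44 and Ifi47 from -0.40 to 0.43. The lone array left of a group is assumed to vary like the other groups. No member was called between groups in any of these fits.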
